A study of Mus musculus with 6 samples.

Results

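The complement genes described here are 8 rows of a table of 24054 gene rows, from lungs of mice given extracellular vesicles (EVs) of either of 2 donor genotypes. They were chosen by name: the components C2, C3, C4b and Cfb, the inhibitor Serping1, the lectin pathway protease Masp1 and the anaphylatoxin receptors C3ar1 and C5ar1. A further symbol, C1s, has no row of its own, and the mouse copies C1s1 and C1s2 are given beside the 8. Of these 8 rows, 7 had a mean level of at least 1 and were tested, and Masp1 fell short.

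The Tsc1-null EV group (3 libraries) and the WT EV group (3 libraries) were lungs of female SCID mice. The mice had received labelled EVs bearing CD9, CD63 and CD81 by tail vein, from cultured neural progenitors of E15.5 mouse embryos that lacked Tsc1 or were wild type. In both groups 500000 rat ELT3 cells, a cell line used to model lymphangioleiomyomatosis, followed intravenously 48 h later, and lungs were collected 72 h after that. SCID mice lack mature B and T cells and keep myeloid and natural killer cells. The comparison addresses whether the genotype of the EV donor changes the lung that receives the tumour cells. Every value is relative to lungs that also had EVs and ELT3 cells, since no lungs without either were analysed here. Rat reads were not separated from mouse reads.

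Complement is a chain of plasma and tissue proteins that marks surfaces for uptake and calls in leukocytes. The classical pathway starts with C1, whose proteases C1r and C1s cleave C4 and C2, the lectin pathway reaches the same step through the MASP proteases, and the alternative pathway joins factor B to C3b. All of these end in a convertase that cleaves C3, and the small fragments C3a and C5a act on G protein-coupled receptors, mainly on myeloid cells. The liver makes most plasma complement, while epithelium, fibroblasts, mesothelium and macrophages make it locally.

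None of the 8 genes separated the groups: for each of them the Tsc1-null EV libraries overlapped the WT EV libraries, and none of the 7 tested passed. C2 and C4b had the lowest average differences, with log2 folds of -1.15 and -0.73. C3ar1 and C5ar1 had the highest, with 0.44 and 0.28. In C2, C3, C4b, Serping1 and C5ar1 the lowest of the 6 values was that of Tsc1-null EV replicate 1, and in C2, C3, C4b and Cfb the highest was that of WT EV replicate 2. Without this pair of libraries, and so without those extremes, all 7 log2 folds were above 0, from 0.053 for C2 to 0.56 for C5ar1. None passed.

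The libraries held 5101413 to 9358820 reads in the Tsc1-null EV group and 6565182 to 8222269 in the WT EV group. The same pair of libraries stood apart over all tested genes. It also held the fewest reads, 5101413 in Tsc1-null EV replicate 1 and 6565182 in WT EV replicate 2, against at least 8079325 elsewhere. The median correlation of Tsc1-null EV replicate 1 and WT EV replicate 2 with the others was 0.942 and 0.963, against 0.980 to 0.982 in the other 4. Malat1, a nuclear noncoding RNA, stood at 30060 in that Tsc1-null EV library and 15673 in that WT EV library, against 1609 to 2819 elsewhere. Rn45s stood at 13776 in that Tsc1-null EV library and 10881 in that WT EV library, against 3293 to 6120 elsewhere. Values are TMM-normalized signal on a CPM scale unless another scale is named. Folds are differences of log2(value + 1), with Tsc1-null EV on top and WT EV below, ± SE, and p-values are two-sided from limma, with Benjamini-Hochberg adjustment over 14159 genes. The surfactant gene Sftpc, at 13094 to 29628 in Tsc1-null EV and 17290 to 22064 in WT EV libraries, was abundant, as in the labelled tissue.

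**Figure D1:**
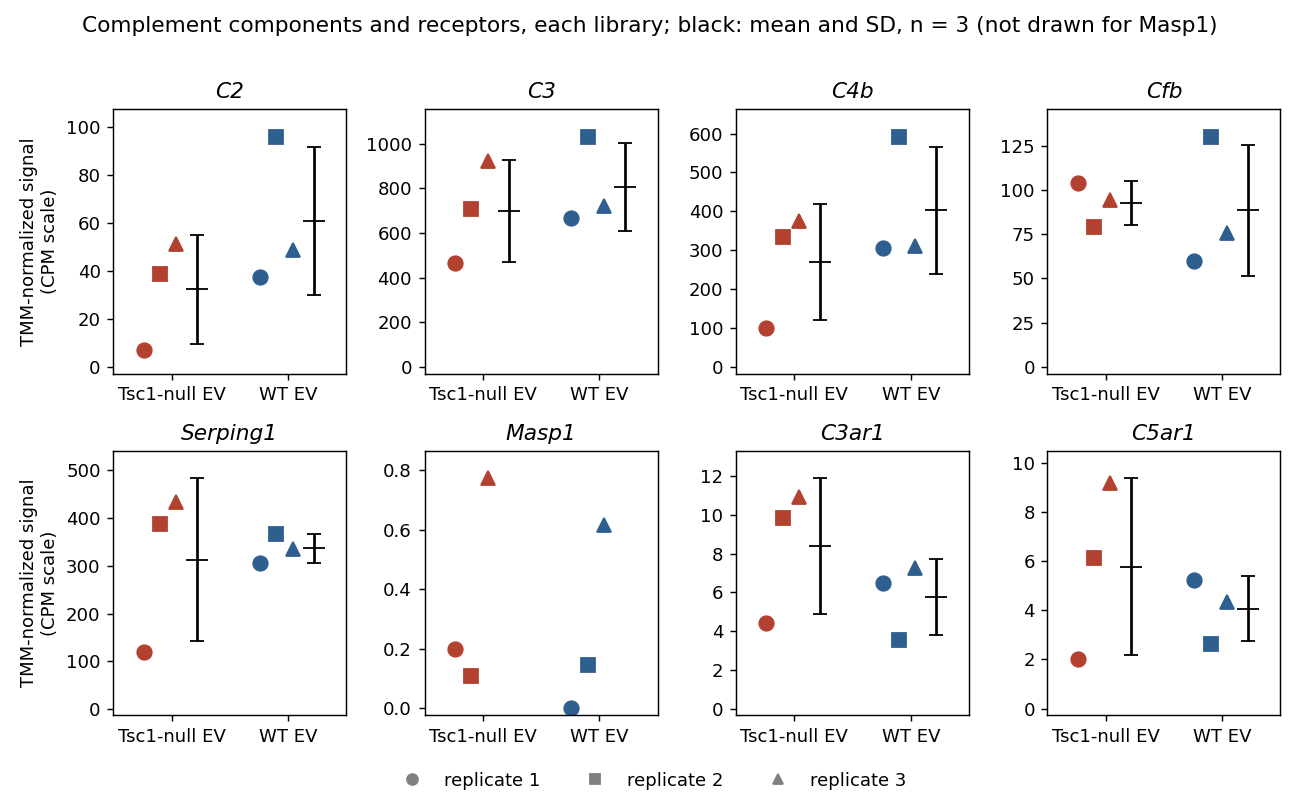
TMM-normalized signal on a CPM scale (linear axes) of each complement gene in the 3 Tsc1-null EV libraries (red, left) and the 3 WT EV libraries (blue, right), with symbols for the replicates. The mean and SD are in black and are not drawn for Masp1. The groups overlap in every panel; Tsc1-null EV replicate 1 (circle) is the lowest point for C2, C3, C4b, Serping1 and C5ar1.

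Across all genes 6.86% were higher in all 3 Tsc1-null EV libraries than in all 3 WT EV libraries and 6.22% were lower in all 3, against 0 of the 7 complement genes in either direction. The share of all genes that passed at an adjusted p under 0.05 was 0%. At an unadjusted p under 0.05 limma had 6.57% of all genes and 0 of these 7. With adjustment edgeR called 0 of 14159 genes, DESeq2 called 14, and neither called any of the 7. At an unadjusted p under 0.05 limma had 930 genes, edgeR 966 and DESeq2 949. Of the 7, 3 had a log2 fold above 0, as had 47.3% of all genes, and 4 had one below 0, as had 52.7%. Their median log2 fold was -0.23, beside a median of -0.015 over all genes tested.

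The products of C2 and C4b form the convertase of the classical and lectin pathways, and both genes had lower means with Tsc1-null EV. C2, the protease of that convertase, stood at 7.22, 38.5 and 51.3 in Tsc1-null EV replicates 1, 2 and 3, and at 37.6, 95.8 and 48.7 in WT EV replicates 1, 2 and 3. The other 2 Tsc1-null EV values lay within the WT EV range, and only replicate 1 lay below it. That value came from 36 reads, whose exact Poisson 95% interval of 5.05 to 9.99 on the signal scale covers counting error only. The means were 32.3 ± 22.7 and 60.7 ± 30.9 (SD, n = 3 each), and the log2 fold was -1.15 ± 0.64 (95% interval -2.61 to 0.31, limma adjusted p = 0.741). Leaving out Tsc1-null EV replicate 1 gave -0.33, and leaving out WT EV replicate 2 gave -0.77.

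C4b, which in mouse encodes complement C4, the protein whose larger fragment binds covalently to surfaces, stood at 98.8, 334 and 375 in Tsc1-null EV replicates 1 to 3, and at 307, 592 and 311 in WT EV replicates 1 to 3. The order of the libraries was again Tsc1-null EV replicate 1 at the bottom and WT EV replicate 2 at the top. The means were 269 ± 149 and 403 ± 163 (SD, n = 3 each), with a log2 fold of -0.73 ± 0.49 (95% interval -1.84 to 0.38, limma adjusted p = 0.772). The value was -0.12 when Tsc1-null EV replicate 1 was left out and -0.41 when WT EV replicate 2 was. C4b shares 34.6% of its 50-base words with its neighbour C4a, so reads of the pair could be split in either way. C4a stood at 1.00 to 3.77 in Tsc1-null EV and 1.59 to 8.67 in WT EV libraries, and with both summed the log2 fold of C4b stayed at -0.73.

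C1s, the protease of C1 that cleaves C4 and C2, is written in mouse as C1s1 and C1s2. C1s1 stood at 51.7, 144 and 137 in Tsc1-null EV replicates 1 to 3 and at 119.8, 171 and 118 in WT EV replicates 1 to 3. It had the same bottom and top libraries as C2 and C4b, and a log2 fold of -0.41 ± 0.37 (limma adjusted p = 0.839). C1s2 stood at 32.1, 38.1 and 29.8 in Tsc1-null EV replicates and at 50.7, 50.1 and 42.9 in WT EV replicates. Here the groups did not overlap, with a log2 fold of -0.51 ± 0.16 (limma unadjusted p = 0.0105, adjusted p = 0.721). The copies share 21.8% of the words of C1s1 and 26.9% of those of C1s2, so their split is uncertain.

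Masp1, a protease of the lectin pathway, was close to the detection limit. It had 1, 1 and 7 reads in Tsc1-null EV replicates 1 to 3, and 0, 1 and 5 reads in WT EV replicates 1 to 3. The count of 0 in WT EV replicate 1 allows up to 0.450 on the signal scale (exact Poisson), and the highest value in the set was 0.773. Masp1 was not tested.

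C3, on which all 3 pathways converge, stood at 467, 708 and 921 in Tsc1-null EV replicates 1 to 3 and at 666, 1031 and 722 in WT EV replicates 1 to 3. The means were 699 ± 227 and 806 ± 197 (SD, n = 3 each), with a log2 fold of -0.23 ± 0.28 (95% interval -0.87 to 0.41, limma adjusted p = 0.892). With Tsc1-null EV replicate 1 left out it was 0.029, and with WT EV replicate 2 left out -0.043. The 4 genes whose pattern over the 6 libraries was most like that of C3, among 9777 genes with a mean of at least 10, were Ppp6r3, Pomgnt2, Pold1 and Ajuba, with Pearson r of 0.991, 0.990, 0.989 and 0.988. These are descriptions over 6 libraries, picked for their likeness and with no test.

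The 250 bases before the C3 start, at chr17:57228137-57228386 on the minus strand (RefSeq, GRCm38.p6), are shown because C3 is where the pathways meet. Capitals mark the match to a C/EBP motif, 45 to 38 bases before the start.
C3: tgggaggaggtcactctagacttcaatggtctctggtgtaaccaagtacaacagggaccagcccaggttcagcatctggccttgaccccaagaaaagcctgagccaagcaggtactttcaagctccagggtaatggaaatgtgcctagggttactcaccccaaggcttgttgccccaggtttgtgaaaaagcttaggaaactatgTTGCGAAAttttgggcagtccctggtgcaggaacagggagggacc
Motifs were searched on both strands as TTGCNNAA for C/EBP, TGANTCA for AP-1 and TTCNNNGAA for the STAT element GAS. Of 32851 promoter windows of this length, 9.56% held the C/EBP letters, 6.75% the AP-1 and 7.02% the GAS letters. Of the 8 genes 3 had a promoter entry, C3, C3ar1 and C5ar1.

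Cfb, factor B of the alternative pathway, lies beside C2 on chromosome 17. It stood at 104, 79.3 and 94.5 in Tsc1-null EV replicates 1 to 3 and at 59.6, 130.1 and 75.8 in WT EV replicates 1 to 3. Among the other 5 libraries both genes were lowest in WT EV replicate 1 and highest in WT EV replicate 2, while Tsc1-null EV replicate 1, lowest for C2, was here the highest of its group. The means were 92.5 ± 12.4 and 88.5 ± 36.9 (SD, n = 3 each), with a log2 fold of 0.13 ± 0.27 (95% interval -0.48 to 0.74, limma adjusted p = 0.944). Leaving out WT EV replicate 1 turned the sign, to -0.11, and leaving out WT EV replicate 2 gave 0.45.

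The ratio of Cfb to C2 was 14.4, 2.06 and 1.84 in Tsc1-null EV replicates 1 to 3, against 1.59, 1.36 and 1.55 in WT EV replicates 1 to 3. All 3 Tsc1-null EV ratios lay above all 3 WT EV ratios. On the log2 scale they averaged 1.92 ± 1.67 in Tsc1-null EV and 0.58 ± 0.12 in WT EV (SD, n = 3 each), a difference of 1.34, which is less than the SD within Tsc1-null EV. Without Tsc1-null EV replicate 1 and WT EV replicate 2 the difference was 0.31. This ratio was picked after its values were seen, so no test is given. In GENCODE M21 the predicted gene Gm20547 runs through both loci, and 38.7% of the 50-base words of C2 and 73.0% of those of Cfb also occur in its transcripts. Gm20547 is not named in the table, and how such reads were assigned is not given in the sources used here.

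**Figure D2:**
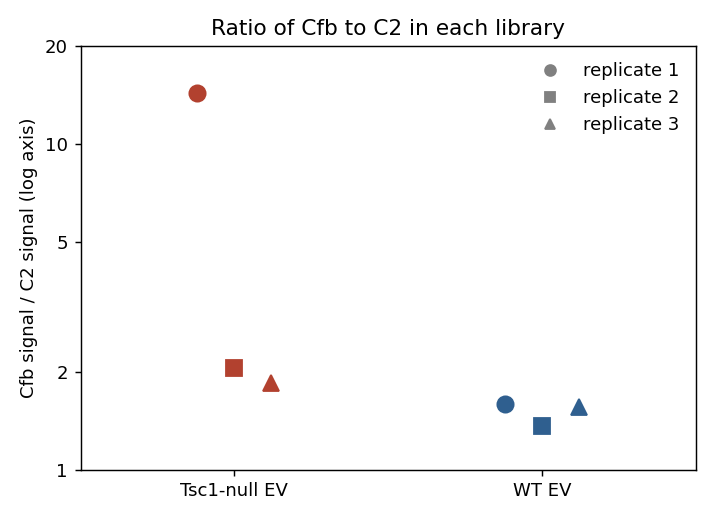
Ratio of the Cfb signal to the C2 signal (log axis) in the 3 Tsc1-null EV libraries (red, left) and the 3 WT EV libraries (blue, right), with symbols for the replicates. Tsc1-null EV replicate 1 stands at 14.4 and its group mates at 2.06 and 1.84, all above the WT EV values of 1.36 to 1.59.

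Serping1, the C1 inhibitor that blocks C1r, C1s and the MASPs, stood at 119, 386 and 434 in Tsc1-null EV replicates 1 to 3 and at 306, 367 and 336 in WT EV replicates 1 to 3. One Tsc1-null EV library lay far below the WT EV range and the other 2 lay above it. The means were 313 ± 169.9 and 336 ± 30.6 (SD, n = 3 each), with a log2 fold of -0.31 ± 0.43 (95% interval -1.29 to 0.67, limma adjusted p = 0.911). Leaving out Tsc1-null EV replicate 1 turned the sign, to 0.29.

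C3ar1, the receptor of C3a, stood at 4.41, 9.81 and 10.9 in Tsc1-null EV replicates 1 to 3 and at 6.46, 3.53 and 7.28 in WT EV replicates 1 to 3. Tsc1-null EV replicates 2 and 3 were the highest of the 6, and the pair of libraries that stand apart were the lowest in each group. These levels rest on 22 to 99 reads in Tsc1-null EV and 24 to 59 reads in WT EV libraries. The means were 8.39 ± 3.49 and 5.76 ± 1.97 (SD, n = 3 each), with a log2 fold of 0.44 ± 0.36 (95% interval -0.37 to 1.25, limma adjusted p = 0.813). The value was 0.80 with Tsc1-null EV replicate 1 left out and 0.17 with WT EV replicate 2 left out.

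C5ar1, the receptor of C5a on neutrophils and macrophages, stood at 2.00, 6.15 and 9.17 in Tsc1-null EV replicates 1 to 3 and at 5.24, 2.65 and 4.32 in WT EV replicates 1 to 3. Tsc1-null EV replicates 2 and 3 were again the highest, on 57 and 83 reads. The means were 5.77 ± 3.60 and 4.07 ± 1.32 (SD, n = 3 each), with a log2 fold of 0.28 ± 0.44 (95% interval -0.71 to 1.28, limma adjusted p = 0.922). The value was 0.79 with Tsc1-null EV replicate 1 left out, 0.063 with WT EV replicate 2 left out and -0.094 with Tsc1-null EV replicate 3 left out. The genes most like C3ar1 over the 6 libraries were Gpnmb, Rab7, Pigs and Lmcd1, with Pearson r of 0.992, 0.990, 0.987 and 0.986. Gpnmb stood at 13.6, 63.3 and 66.5 in Tsc1-null EV and 28.3, 10.6 and 29.0 in WT EV replicates.

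The promoters of the 2 receptors are shown because both receptors were highest in Tsc1-null EV replicates 2 and 3. That of C3ar1 lies at chr6:122856158-122856407 and that of C5ar1 at chr7:16259339-16259588, both on the minus strand (RefSeq, GRCm38.p6). The RefSeq start of C5ar1 lies inside the gene as GENCODE M21 annotates it, so most of that window is within the GENCODE gene. Capitals mark an AP-1 match 22 to 16 bases before the C3ar1 start, and none of the 3 motifs is in these letters of C5ar1.
C3ar1: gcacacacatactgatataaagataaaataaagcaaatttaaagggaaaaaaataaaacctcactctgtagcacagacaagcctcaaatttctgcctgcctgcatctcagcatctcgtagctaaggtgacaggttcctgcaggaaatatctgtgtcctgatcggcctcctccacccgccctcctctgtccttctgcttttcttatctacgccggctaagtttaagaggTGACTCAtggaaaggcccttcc
C5ar1: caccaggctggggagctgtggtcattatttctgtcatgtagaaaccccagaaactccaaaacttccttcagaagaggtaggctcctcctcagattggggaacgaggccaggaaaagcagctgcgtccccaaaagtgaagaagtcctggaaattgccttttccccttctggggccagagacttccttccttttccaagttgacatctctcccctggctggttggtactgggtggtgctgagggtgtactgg
A match describes these letters and is no evidence of binding.

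Levels of different genes were compared per kb of exon (protein-coding transcripts, GENCODE M21). On that scale Serping1 averaged 156 ± 84.5 in Tsc1-null EV and 167 ± 15.2 in WT EV, and C3 136 ± 44.3 and 157 ± 38.4, so the first and second places did not differ beyond their spread. C4b followed with 50.1 ± 27.7 in Tsc1-null EV and 75.0 ± 30.4 in WT EV per kb. Cfb stood at 32.7 ± 4.39 and 31.3 ± 13.1 per kb and C2 at 11.0 ± 7.73 and 20.7 ± 10.6 per kb. The ranges of C4b and Cfb overlapped in Tsc1-null EV and not in WT EV, and those of Cfb and C2 overlapped in WT EV and not in Tsc1-null EV. Within each of the 6 libraries Cfb was above C2. Other annotated genes overlap 79.5% of the exonic bases of Cfb and 61.3% of those of C2, so these per-kb levels are uncertain. The receptors were below C2 in each of the 6 libraries, C5ar1 at 2.25 ± 1.40 in Tsc1-null EV and 1.58 ± 0.513 in WT EV and C3ar1 at 1.95 ± 0.810 and 1.34 ± 0.458 per kb, within their spread of each other. Masp1 was last, at no more than 0.0905 per kb in any library.

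In build mm10 (GRCm38, GENCODE M21) all 8 are annotated as protein-coding genes on the minus strand, and values are totals over each gene. C4b lies on chromosome 17 from 34728380 to 34743882, Cfb from 34856374 to 34862518, C2 from 34862604 to 34898265 and C3 from 57203970 to 57228136. Serping1 lies on chromosome 2 from 84765387 to 84775444, Masp1 on chromosome 16 from 23449417 to 23520815, C3ar1 on chromosome 6 from 122847138 to 122856161 and C5ar1 on chromosome 7 from 16246743 to 16259540. Exons of C2 also overlap Zbtb12 on the other strand.

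Other complement genes, from a list of 50 symbols of which 30 were tested, had a median log2 fold of -0.028, with 14 above 0 and 16 below. Of these 30, 3 were higher in all 3 Tsc1-null EV libraries and 1, C1s2, was lower in all 3, beside 6.86% and 6.22% of all genes, and 0 passed. These counts are near the shares over all genes, and the genes are named as a description. The 3 were C6, a subunit of the membrane attack complex, the carboxypeptidase Cpn1, which inactivates anaphylatoxins, and C1rl. C6 stood at 59.5, 80.1 and 59.2 in Tsc1-null EV and 56.2, 39.4 and 36.8 in WT EV replicates, with a log2 fold of 0.59 ± 0.20 (limma unadjusted p = 0.0196, adjusted p = 0.721). Cpn1 had a log2 fold of 0.61 ± 0.23 at a level near 8.32, and C1rl one of 0.21 ± 0.17.

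Cfd, factor D, which cleaves factor B and is made by fat cells, ranged from 7.22 to 68.4 in Tsc1-null EV and from 20.0 to 188 in WT EV libraries. Adipocyte markers summed to 56.7, 187 and 91.5 in Tsc1-null EV and 233, 72.0 and 485 in WT EV replicates 1 to 3, with WT EV replicate 3 highest and Tsc1-null EV replicate 1 lowest, as for Cfd. Their part in the Cfd values was not tested. Hc, which encodes C5, stood at 225, 404 and 333 in Tsc1-null EV and 288, 241 and 209 in WT EV replicates, with overlapping groups. C1qa, a chain of C1q, stood at 41.9, 90.9 and 86.2 in Tsc1-null EV and 82.1, 40.4 and 56.9 in WT EV replicates. C8a, C8b, Mbl2 and Fcnb were at 0 in every library.

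**Figure D3:**
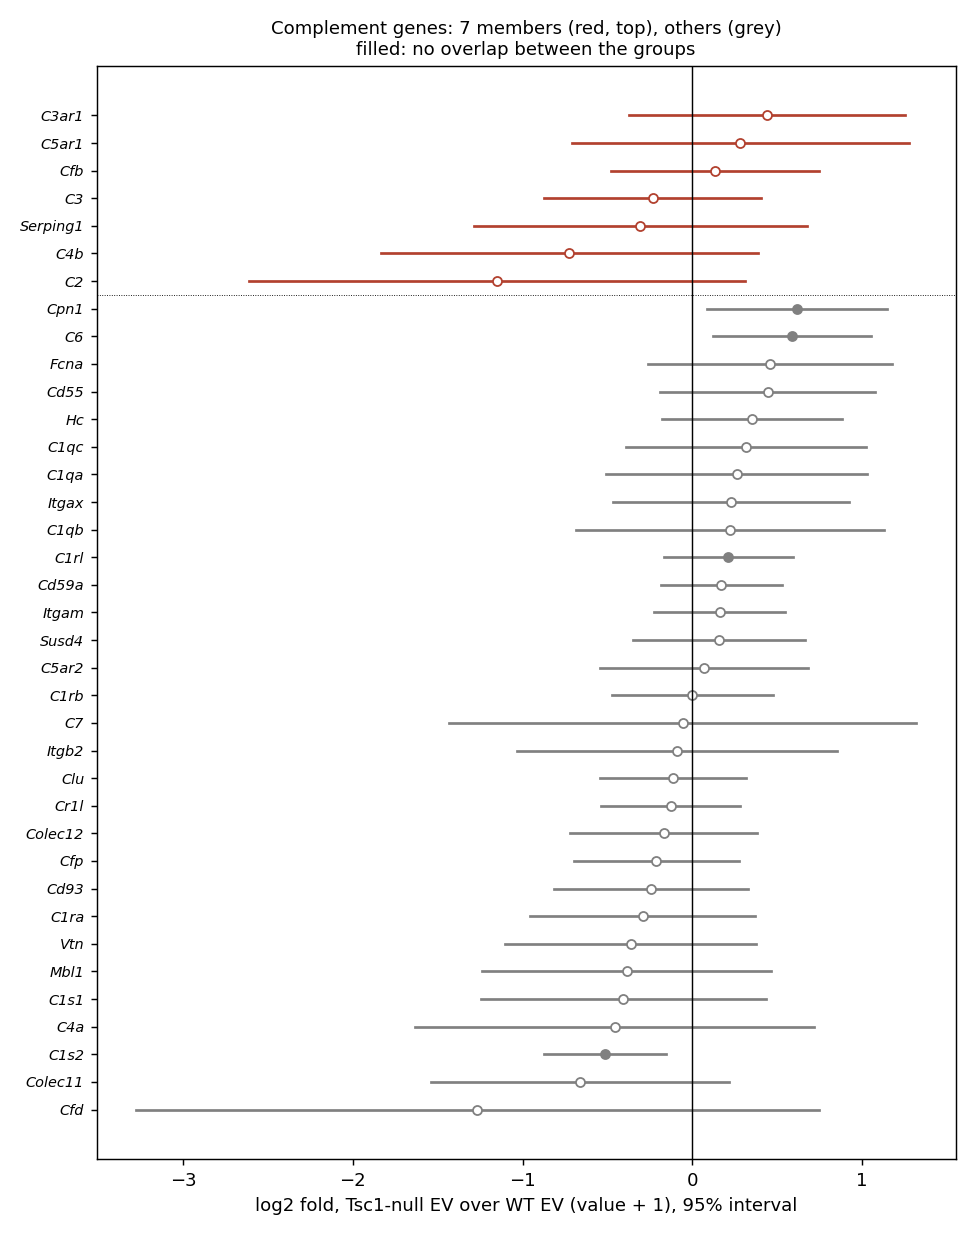
Difference of log2(value + 1) between Tsc1-null EV and WT EV libraries (log2 fold), with its limma 95% interval, for the 7 tested members (red, top) and 30 other tested complement genes (grey). Filled points mark genes whose groups do not overlap; the members' intervals all span 0, and C1s2, C6, Cpn1 and C1rl are filled.

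By summed level, only the mesothelial list among the cell type lists had the same lowest and highest libraries as C2, C4b, C3 and C1s1. Mesothelial markers, of the cell layer on the lung surface, had 10 of 11 tested members below 0 and a median log2 fold of -1.35. Their summed level was 254, 641 and 809.6 in Tsc1-null EV replicates 1 to 3 and 797, 1464 and 737 in WT EV replicates 1 to 3. The bottom and top libraries were those of C2, C4b, C3 and C1s1, but not those of C1s2. Krt19 of this list was lowest in WT EV replicate 2, at 170. Tsc1-null EV replicate 1 also had the lowest fibroblast (2926), endothelial (2611), adipocyte (56.7), alveolar type 2 (22223), alveolar macrophage (326) and interferon-stimulated (347) sums. It did not have the lowest monocyte and interstitial macrophage, neutrophil, acute phase or hepatocyte sum. Msln stood at 7.02, 113 and 160.4 in Tsc1-null EV and 119, 414 and 130.4 in WT EV replicates, and Bnc1 was at 0 in Tsc1-null EV replicate 1. The part of mesothelial content in the C2, C4b and C3 values was not tested, and fewer cells of a type cannot be told apart from less RNA per cell in whole lung.

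Markers of monocytes and interstitial macrophages had 7 of 10 tested members above 0 and a median log2 fold of 0.15. Their summed level was 268, 372 and 365 in Tsc1-null EV replicates 1 to 3 and 319, 239 and 289 in WT EV replicates 1 to 3, so Tsc1-null EV replicates 2 and 3 were highest, as for C3ar1 and C5ar1. Alveolar macrophage markers summed to 326 to 511 in Tsc1-null EV and 374 to 590.2 in WT EV libraries, with 5 of 10 above 0. Neutrophil markers summed to 81.0 to 97.8 in Tsc1-null EV and 57.5 to 98.5 in WT EV libraries, with 3 of 8 above 0. The same 2 libraries were also highest for the summed level of fibroblast markers, at 6956 and 6108 against at most 5610 elsewhere. Their fibroblast list medians, against the WT EV mean, were 0.34 and 0.11, with WT EV replicate 3 at 0.15. For alveolar type 2 markers the summed levels of these 2 libraries were 43961 and 34310, against at most 32439 elsewhere. By summed level these 2 libraries were not both highest for alveolar macrophage, neutrophil, mesothelial, endothelial, adipocyte or hepatocyte markers. By list median, against the WT EV mean, both were highest for alveolar macrophage markers, at 0.36 and 0.47 against at most 0.35 elsewhere. The summed level of that list held Car4, at 154 to 267 in Tsc1-null EV and 214 to 357 in WT EV libraries. The part of myeloid content in the receptor levels was not tested.

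Fibroblast markers summed to 2926 to 6956 in Tsc1-null EV and 4773 to 5610.5 in WT EV libraries, with 6 of 12 above 0 and a median log2 fold of -0.038. Endothelial markers had 11 of 12 below 0 (median -0.33), adipocyte markers 8 of 9 below 0 (median -0.90) and alveolar type 2 markers 9 of 10 above 0 (median 0.42). Interferon-stimulated genes had 12 of 15 below 0 and a median of -0.25, with Tsc1-null EV replicate 1 at -0.77 against the WT EV mean. Acute phase and inflammation genes had 8 of 10 above 0 and a median of 0.24, with the same library at 0.54. Hepatocyte markers summed to 1.29 to 3.21 in Tsc1-null EV and 0.976 to 1.73 in WT EV libraries, and Fgb was at 0 in all 6.

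**Figure D4:**
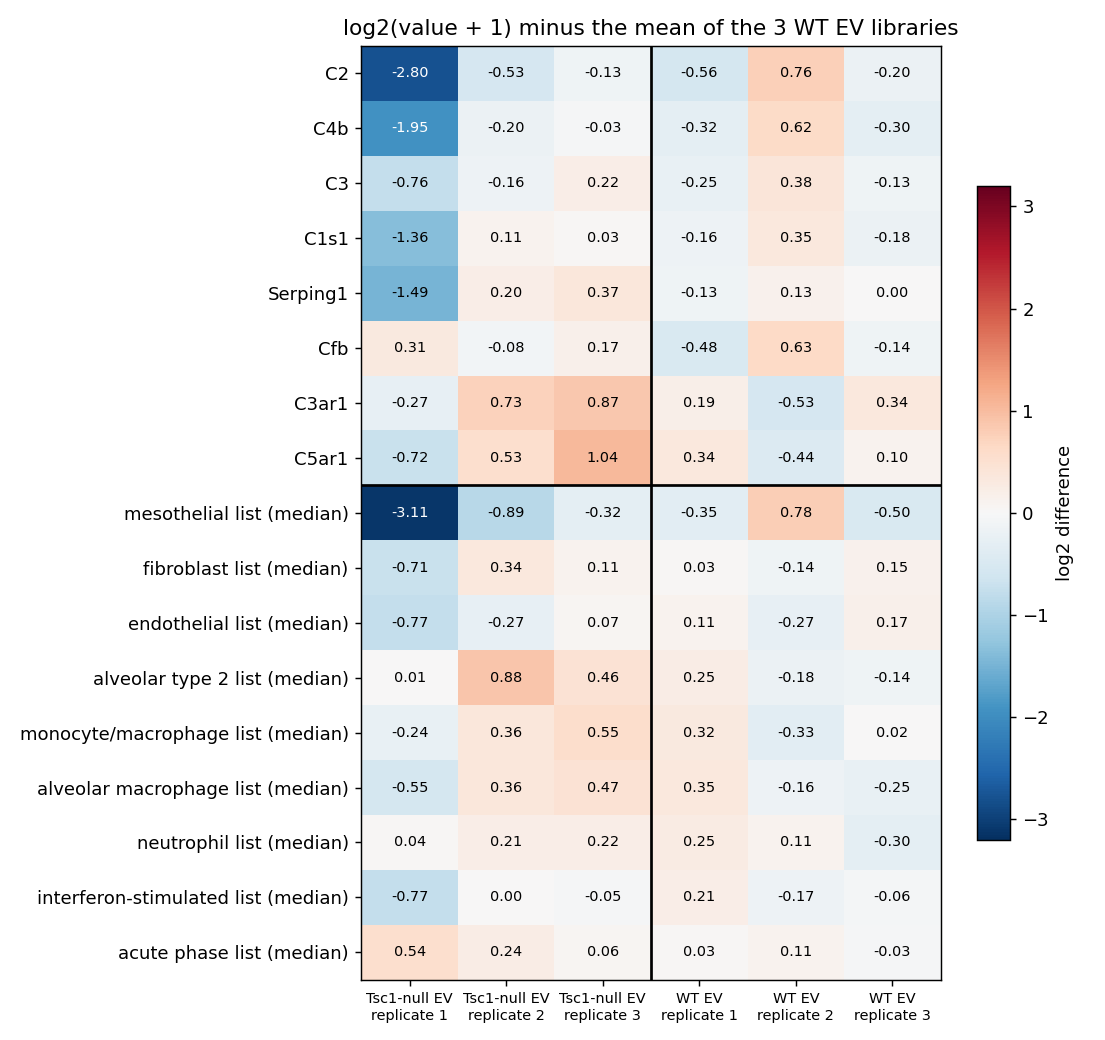
Log2(value + 1) minus the mean of the 3 WT EV libraries, for complement genes (top rows) and as the median over each marker list (lower rows), in the 3 Tsc1-null EV (left) and 3 WT EV libraries. Tsc1-null EV replicate 1 stands at -2.80 for C2, -1.95 for C4b and -3.11 for the mesothelial list, while Cfb in that library stands at 0.31.

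Without Tsc1-null EV replicate 1 and WT EV replicate 2, 7 of 7 genes had a log2 fold above 0, beside 49.6% of all 14052 genes tested. Serping1 stood at 0.35 ± 0.14, C3ar1 at 0.53 ± 0.20, C5ar1 at 0.56 ± 0.24 and Cfb at 0.36 ± 0.16. These 4 had an unadjusted limma p under 0.05, as had 10.9% of all genes, with adjusted p from 0.350 for C3ar1 to 0.441 for Cfb. C2 stood at 0.053 ± 0.18, C3 at 0.22 ± 0.17 and C4b at 0.20 ± 0.14. In 5 of 7 genes both remaining Tsc1-null EV libraries lay above both remaining WT EV libraries, against 20.9% of all genes. The pair left out holds the lowest and the highest values of C2, C3 and C4b, so leaving it out raises their folds by construction. The same holds for Serping1, where it has the lowest Tsc1-null EV value, 119, and the highest WT EV value, 367. For C5ar1 it holds the lowest of all values and for Cfb the highest. Leaving out that library alone also raised the fold, to 0.79 for C5ar1 and 0.45 for Cfb. For C3ar1 the pair holds the lowest value of each group. These counts therefore describe the remaining libraries and are no test of the 7 genes as a set.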

How the data were processed

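RNA of 6 lungs was read as paired ends, per the labels' protocols. The deposited values are a TMM-normalized signal on a CPM scale, going by the table's name. The submitters' processing notes name Bowtie2 2.1.0, RSEM 1.2.15, edgeR and the build mm10 with no role for any of them. No source used here gives the annotation or strand setting. Within a library 99.9986% of values were a whole number of steps (within 0.001), and dividing by the step gave reads per gene. Libraries of the same group differed by a chi-square of 8.78 to 55.2 per degree of freedom, so none was a duplicate. The labels give no day or cage for any mouse. The p-values set the group difference against the spread between libraries within the groups.

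Genes with a mean of at least 1 were tested on log2(value + 1) in R 4.3.3 by limma 3.58.1 with an intensity trend (threshold 0.05). Alternatives used edgeR 4.0.16 (quasi-likelihood) and DESeq2 1.42.0 on the recovered reads. The main limma fit, edgeR and DESeq2 were tried on simulated counts, and the other alternatives were not. No simulated library was made to stand apart, so the simulation does not cover that feature of these data. The members and lists were chosen with earlier results of these data known. One gene of the list of other complement genes is not reported here and was left out of its counts. Named genes were all members, other complement genes whose groups did not overlap or that were listed by name, the highest genes of marker lists, and the 4 most like C3 and C3ar1. Not every gene this allowed is reported. Gpnmb's values, Bnc1, Msln, Zbtb12, Rn45s and genes at 0 were added after their values were seen. For shared sequence, 50-base words of each gene's transcripts were looked up in those of all other genes of GENCODE M21.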

Additional observations from a re-analysis of the deposited data

How the results depend on the processing

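No alternative called any of the 7 tested complement genes, with adjusted p from 0.139 to 0.998 (DESeq2 gave none for C3ar1 and C5ar1). Over all genes limma called 0 and DESeq2 14. Limma called 0 to 2 with 1 library left out, and 23 without Tsc1-null EV replicate 1 and WT EV replicate 2. Limma with sample weights called 1050. Those weights were 3.95 for Tsc1-null EV replicate 2 and 4.19 for WT EV replicate 3, against 0.21 to 0.93 for the others. The weighted fit thus rests mostly on 1 library per group. The median log2 fold of the 7 was -0.23, ranged from -0.46 to 0.045 with 1 library left out, was -0.10 with edgeR and DESeq2, 0.12 with sample weights and 0.35 without that pair. The median of the 30 other complement genes, -0.028, was 0.049 with edgeR, 0.058 with DESeq2 and 0.12 with sample weights. Of 119 recomputed folds 9 changed sign. Without the pair C2 stood at 0.053, C3 at 0.22, C4b at 0.20 and Serping1 at 0.35. Without Tsc1-null EV replicate 1 C3 stood at 0.029 and Serping1 at 0.29, without Tsc1-null EV replicate 3 C5ar1 stood at -0.094, without WT EV replicate 1 Cfb stood at -0.11, and with sample weights Serping1 stood at 0.17, C2 at -0.37, C3 at -0.011, C4b at -0.0091 and C5ar1 at 0.45. edgeR and DESeq2 had C5ar1 at 0.53, Serping1 at -0.10 and Cfb at 0.063 and 0.069. With 1 library left out, log2 folds ranged from -1.66 to -0.33 for C2, -0.46 to 0.029 for C3, -1.07 to -0.12 for C4b, -0.11 to 0.45 for Cfb, -0.64 to 0.29 for Serping1, 0.17 to 0.80 for C3ar1 and -0.094 to 0.79 for C5ar1. The cause was not tested. edgeR, DESeq2, either smaller pseudocount (0.1, 0.5), scaling to a common median or by quantiles, either other filter (none, a mean of 5) and a fit with no trend turned no sign among the 7, nor did summing C4b and C4a, which was chosen after seeing the data. A filter at 5 removed C5ar1. No paired analysis was possible because the labels number the mice separately and share no replicate numbers between the groups. Depth limits the precision of Masp1, with at most 7 reads. C5ar1 in Tsc1-null EV libraries ranged beyond counting error, from 2.00 (exact Poisson 95% interval 0.961 to 3.69) to 9.17 (7.30 to 11.4).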
